A study of Mus musculus with 20 samples.

Results

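The comparison of Tie2Cre hosts with wild-type hosts covered 7 of the 20 libraries of the study, the 3 whose titles name the Tie2Cre background and the 4 titled WT. Each library was bulk RNA sequencing of CD31-positive cells sorted from an E0771 tumour. E0771 is a mouse mammary carcinoma line. CD31, the product of Pecam1, is the adhesion molecule by which endothelium is commonly sorted. Per the labels, all hosts were C57BL/6J mice that received 500000 E0771 cells in the mammary fat pad, and tumours were taken out at a volume of 500 mm3. The WT hosts carry no named allele. The Tie2Cre hosts carry a Cre recombinase under the promoter of Tek (Tie2), with no floxed gene named in the label. Age, sex and treatment are not stated in the labels. Both backgrounds are classed by the submitters as competent for CD4 T cells, as is CD8KO (n = 3). The Tie2Cre background is the control of Tie2Cre_H2Abf (n = 4), in which the same driver is combined with a floxed H2-Ab1 allele. The comparison therefore shows how far a control with the driver alone stood from plain wild type.

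Tie2 is a receptor of endothelial cells for angiopoietins. Its promoter drives Cre in endothelium and, through blood-forming precursors, in many blood cells, so Tie2Cre mice delete floxed genes in both lineages. Mice that carry the driver alone are used as the control for deletions made with it, because a recombinase, its insertion site and the line's history can each differ from the wild type.

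The libraries of both groups carry a number in their titles, and it is used here as their name. Tie2Cre_9501, Tie2Cre_9502 and Tie2Cre_9504 belong to the 95xx series and WT_9748, WT_9749, WT_9771 and WT_9772 to the 97xx series, so that number series and genotype cannot be told apart. Values are given in that order throughout. The smallest of the 7 libraries, Tie2Cre_9501, held 1543847 counts and the largest, WT_9749, held 8946687, and between 12.8% and 51.2% of them fell on protein-coding genes. A single ribosomal-RNA-like transcript took 32.2% to 78.4% of the counts of a library. One library in each group, Tie2Cre_9501 and WT_9771, was rich in satellite-like RNA (19.7% and 47.1% of counts, against at most 1.29% in the other 5) and is left out beside the results that rest on it. Their protein-coding shares, 50.2% and 51.2%, were the highest of the 7. These shares include satellite-like RNA, since some satellite-like genes are annotated as protein-coding. Levels are CPM, the counts of a gene per 1000000 counts of its library after TMM scaling. A count of 0 allows a level of up to 0.366 to 2.46 CPM, depending on the library (3 counts, counting error only). Xist was found in all 7 libraries (189 to 532 CPM), and the Y-linked genes Ddx3y, Kdm5d, Eif2s3y and Uty were at 0 in each. Nothing in the labels says that the libraries of a group came from separate animals, so p-values measure the spread between libraries of a background, which may be technical. In the main fit that spread was estimated over all 20 libraries of the study.

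No gene passed the test between Tie2Cre and WT. Of 14875 genes tested with the quasi-likelihood test of edgeR, 0 (0%) had a Benjamini-Hochberg adjusted p under 0.05, and the smallest adjusted p was 0.321. At an unadjusted p under 0.05 there were 1019 genes (6.85%), of which 591 (3.97%) were higher and 428 (2.88%) lower in Tie2Cre. The limma-voom test called 0 genes. DESeq2, the tool the submitters name, called 80 genes (0.711% of 11247 with an adjusted p), 47 higher (0.418%) and 33 lower (0.293%), and 31 of the 80 had a mean of at least 10 CPM. In 626 genes (4.21%) the 3 Tie2Cre and 4 WT values did not overlap, 426 of them (2.86%) higher and 200 (1.34%) lower in Tie2Cre. The fitted change was above 0 in 50.8% of all genes, with a median of 0.02 on the log2 scale.

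These counts stand beside a wide spread. The median standard error of a log2 change was 1.16 over all genes and 0.61 over the 4261 genes with a mean of at least 10 CPM. For the latter genes the 95% interval typically reached 1.26 to either side of the estimate, so a difference of 2-fold in either direction was not detectable for most of them at this depth and spread. Spearman correlations across genes, which are not independent replicates, had a median of 0.56 over the 12 pairs of a Tie2Cre and a WT library. The 3 pairs within Tie2Cre ran from 0.47 to 0.73, and the 6 pairs within WT from 0.36 to 0.77. Pairs within a background thus covered about the same range as pairs across backgrounds.

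**Figure D1:**
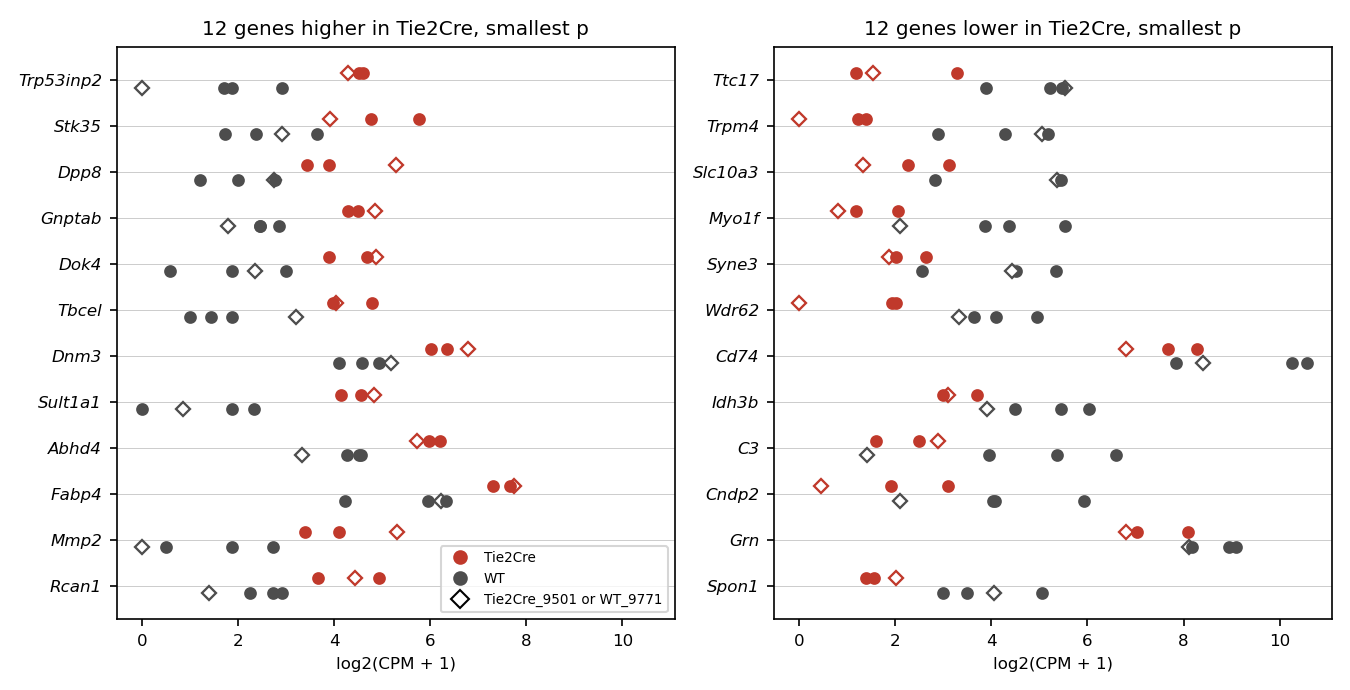
Levels of the 12 genes with the smallest p in each direction among genes with a mean of at least 10 CPM, as log2(CPM + 1) in each of the 3 Tie2Cre (red) and 4 WT (grey) libraries. Open diamonds are the satellite-rich libraries Tie2Cre_9501 and WT_9771. All 12 genes on the left and 7 of 12 on the right have values that do not overlap between groups, and none passed the edgeR test. The genes were chosen by p in this same comparison, so that separation follows largely from the choice. Over all genes tested, 2.86% were higher and 1.34% lower without overlap.

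The smallest p among genes with a mean of at least 10 CPM belonged to Trp53inp2 (chromosome 2, 155381059 to 155389850, plus strand, GRCm38), whose product acts in autophagy and as a coactivator of nuclear hormone receptors. It stood at 18.5, 23.3 and 22.0 CPM in the Tie2Cre libraries and at 2.65, 6.58, 0 and 2.27 CPM in the WT libraries. All 3 Tie2Cre values were above all WT values, and the Tie2Cre values lay close together (21.3 ± 2.47 CPM, SD, n = 3, against 2.88 ± 2.74 CPM, n = 4). The log2 change was 2.77 ± 0.58 (SE), with an adjusted p of 0.337 in edgeR and 3.03e-08 in DESeq2.

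The 12 genes of this direction had edgeR adjusted p-values between 0.337 and 0.517. DESeq2 called 10 of them; it did not call Dnm3 and Fabp4. Fabp4 encodes a fatty acid chaperone of capillary endothelium and adipocytes (chromosome 3, 10204088 to 10208576, minus strand). Its level was 214, 201 and 156 CPM in Tie2Cre and 17.7, 61.2, 73.9 and 79.9 CPM in WT. The lowest Tie2Cre library was above the highest WT library, and the log2 change was 1.71 ± 0.48 (SE; edgeR adjusted p = 0.491). Dnm3, which encodes a dynamin GTPase of membrane fission, had 109, 80.9 and 63.6 CPM in Tie2Cre against 16.2, 22.9, 35.3 and 29.5 CPM in WT (log2 change 1.71 ± 0.47).

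Gnptab, a subunit of the enzyme that tags lysosomal hydrolases with mannose 6-phosphate, stood at 27.96, 21.5 and 18.6 CPM in Tie2Cre and at 4.47, 4.46, 2.46 and 6.25 CPM in WT. Mmp2, the gelatinase A of matrix turnover, had 38.5, 16.2 and 9.45 CPM against 5.63, 0.425, 0 and 2.65 CPM. Its highest value came from the satellite-rich Tie2Cre_9501, and its log2 change was 3.14 with all 7 libraries and 2.14 without the satellite-rich pair. The other 7 genes were Stk35 (a protein kinase), Dpp8 (a cytosolic dipeptidyl peptidase), Dok4 (an adaptor of receptor tyrosine kinases), Tbcel (a tubulin folding cofactor-like protein), Sult1a1 (a phenol sulfotransferase), Abhd4 (a lipid hydrolase) and Rcan1 (an inhibitor of calcineurin). Their log2 changes lay between 1.78 for Abhd4 and 3.50 for Sult1a1, and their values also did not overlap between groups.

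In the other direction Ttc17 led (chromosome 2, 94300767 to 94406689, minus strand), which encodes a tetratricopeptide repeat protein. It had 1.89, 8.78 and 1.26 CPM in Tie2Cre and 13.9, 36.1, 45.1 and 43.3 CPM in WT, a log2 change of -3.08 ± 0.69 (edgeR adjusted p = 0.491, DESeq2 0.000221). Trpm4, a calcium-activated cation channel, stood at 0, 1.34 and 1.64 CPM against 18.4, 6.37, 32.0 and 35.4 CPM. Both genes were low in each Tie2Cre library, whether satellite-rich or not. Slc10a3, an orphan member of the bile acid transporter family, had 1.51, 3.78 and 7.68 CPM against 6.13, 41.0, 40.2 and 42.6 CPM, where the single low WT library reached into the Tie2Cre range.

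Of the remaining 9 genes of this direction, 4 are given by library. Cd74, the invariant chain of MHC class II, had 111, 311 and 204 CPM in Tie2Cre and 1511, 1223, 337 and 227 CPM in WT. The difference came from WT_9748 and WT_9749, while WT_9771 and WT_9772 lay at or near the Tie2Cre range (log2 change -1.98 ± 0.55, edgeR adjusted p = 0.491, DESeq2 0.0141). Myo1f, an unconventional myosin of leukocytes, stood at 0.756, 3.17 and 1.26 CPM against 45.5, 13.6, 3.28 and 19.5 CPM. Complement C3 had 6.42, 4.63 and 2.02 CPM against 95.4, 40.4, 1.64 and 14.4 CPM. Both were again highest in WT_9748. Grn, which encodes the lysosomal protein progranulin, had 111, 273 and 130 CPM against 545, 493, 277 and 290 CPM (log2 change -1.23 ± 0.37). Syne3, Wdr62, Idh3b, Cndp2 and Spon1 made up the rest, with log2 changes from -3.01 for Wdr62 to -2.01 for Idh3b; they encode a nuclear envelope linker, a spindle pole protein, a subunit of mitochondrial isocitrate dehydrogenase, a cytosolic dipeptidase and a matrix protein.

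Leukocyte genes were lower in Tie2Cre as a list, without a single call. All 10 tested pan-leukocyte markers had a fitted change below 0 (49.1% of all genes did), with a median log2 change of -1.39. Of the 10, 2 reached an unadjusted edgeR p under 0.05 (2.88% of all genes were lower at that level). Laptm5, a lysosomal membrane protein of blood cells, had 21.9, 92.4 and 68.0 CPM in Tie2Cre against 263, 322, 22.2 and 115 CPM in WT. Itgb2, the beta chain of the leukocyte integrins, had 1.89, 17.8 and 12.3 CPM against 90.1, 50.3, 7.39 and 23.9 CPM. In both genes the lowest library of each group was the satellite-rich one, and the values of the groups overlapped. Ptprc (CD45), which marks nearly all leukocytes, stood at 27.96, 25.7 and 26.8 CPM against 69.7, 41.4, 24.6 and 19.3 CPM.

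The summed level of the pan-leukocyte list was 105 to 221 CPM in Tie2Cre. In WT it was 672 CPM in WT_9748, 582 CPM in WT_9749, 80.4 CPM in WT_9771 and 255 CPM in WT_9772. Size and direction thus depended on which WT libraries served as the control. Without the satellite-rich pair, all 10 members were lower with a median of -1.50. With WT_9748 or WT_9749 left out, 9 of 10 were lower, with medians of -0.98 and -1.09. Against WT_9748 and WT_9749 alone, 10 of 10 members were lower with a median of -2.07. Against WT_9771, which is satellite-rich, and WT_9772 alone, 5 of 10 were lower with a median of -0.01. In bulk samples fewer cells of a type and less RNA per cell cannot be told apart.

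Macrophage genes gave the same picture with smaller values. Of 16 tested markers 13 were lower and 3 higher, with a median of -0.9996, and without the satellite-rich pair all 16 were lower with a median of -0.83. Csf1r, the receptor for the macrophage growth factor CSF1, had 14.7, 21.7 and 23.6 CPM in Tie2Cre and 184, 82.2, 41.0 and 76.7 CPM in WT. It was the 1 member of the list whose groups did not overlap (log2 change -2.26 ± 0.74, edgeR adjusted p = 0.619). Of all genes, 1.34% were lower without overlap. C1qc, a chain of complement C1q, had 12.5, 22.3 and 36.9 CPM against 57.9, 90.7, 12.3 and 40.7 CPM. Against WT_9771 and WT_9772 alone 12 of 16 members were lower, with a median of -0.26.

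T cell markers were near the detection limit in both groups. Of 14 members 6 could be tested, 3 were at 0 in all 7 libraries, and the summed level was 4.88 to 20.03 CPM in Tie2Cre and 2.46 to 42.7 CPM in WT. Cd3e, the defining chain of the T cell receptor complex, had 1.13, 0.122 and 0 CPM in the Tie2Cre libraries (3, 1 and 0 counts) and was at 0 in all 4 WT libraries. Cd4 stood at 5.29, 1.22 and 1.01 CPM in Tie2Cre and at 2.81, 8.71, 15.6 and 0.379 CPM in WT. Cd8a had 10 counts in all Tie2Cre libraries and 3 in all WT libraries, a ratio of depth-scaled counts of 3.06 (exact 95% interval 0.788 to 17.3, which treats amplified reads as molecules and covers counting error only). All 3 WT counts came from WT_9771. No NK cell marker had enough counts to be tested.

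**Figure D2:**
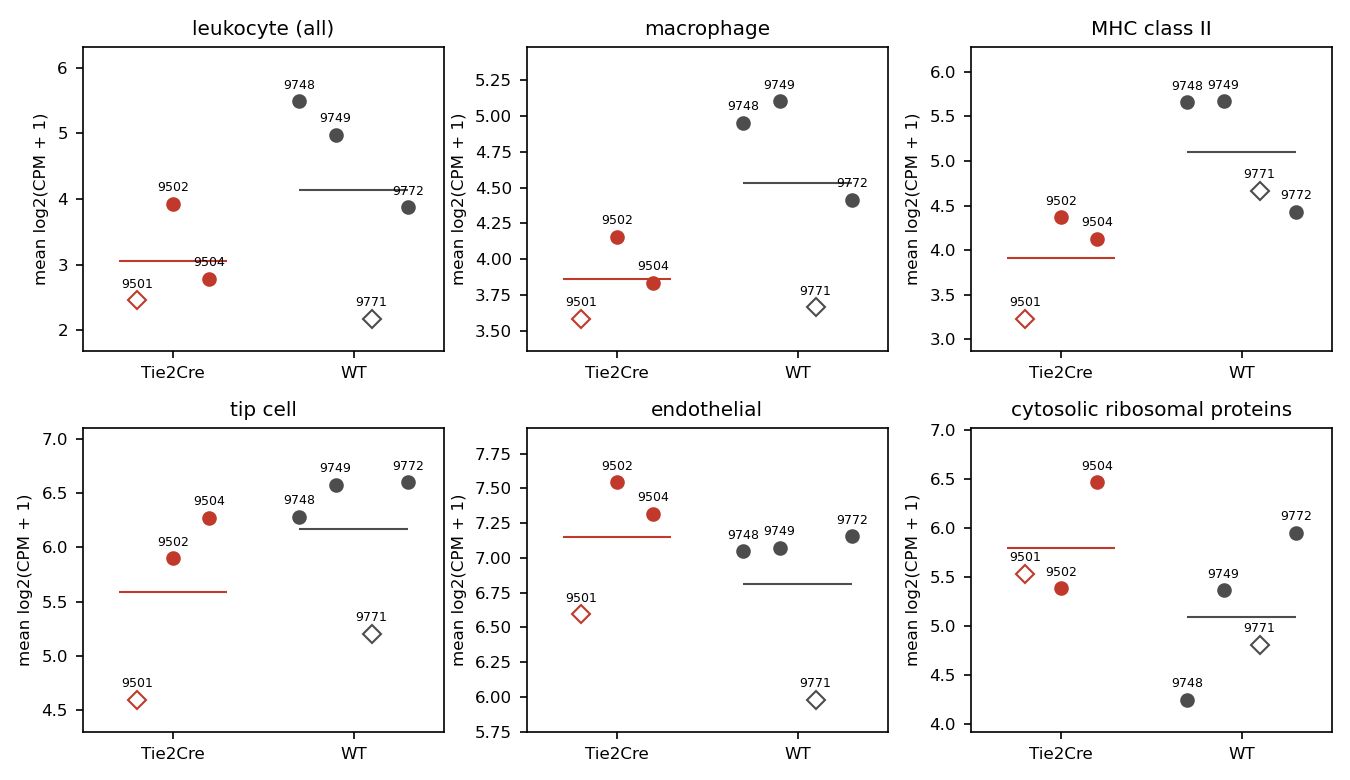
Mean log2(CPM + 1) of the tested members of 6 gene lists in each library, labelled by library number, with the group mean as a line; open diamonds are the satellite-rich libraries Tie2Cre_9501 and WT_9771. The leukocyte, macrophage and MHC class II panels show WT_9748 and WT_9749 above the other 5 libraries, and in all 6 panels both satellite-rich libraries lie below their group mean.

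Antigen presentation genes were lower on the side of the leukocyte markers, again without a call. All 9 tested genes of the MHC class II pathway had a fitted change below 0, with a median of -1.11, 4 of them at an unadjusted p under 0.05 (2.88% of all genes were lower at that level). H2-Ab1, the class II beta chain that is floxed in the Tie2Cre_H2Abf hosts, had 25.3, 96.2 and 60.0 CPM in Tie2Cre against 184, 138, 58.3 and 78.7 CPM in WT (log2 change -0.92 ± 0.55, edgeR adjusted p = 0.791). Ciita, the master activator of class II transcription, stood at 0.378, 2.93 and 0.126 CPM against 19.2, 13.8, 4.10 and 1.89 CPM. H2-DMb1, a chain of the peptide exchange factor, had 1.89, 4.39 and 10.7 CPM against 40.9, 27.4, 14.0 and 19.1 CPM. It was the 1 member with no overlap (1.34% of all genes were lower without overlap). H2-Ob entered the list through 32 counts of WT_9771 alone, and the list's median was -1.11 also with that gene at its bound.

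The summed class II level was 243 to 604 CPM in Tie2Cre, 2106 CPM in WT_9748, 1824 CPM in WT_9749, 528 CPM in WT_9771 and 563 CPM in WT_9772. Class II and pan-leukocyte sums were both highest in WT_9748 and WT_9749, and the part of leukocyte RNA in the class II values was not tested. Against WT_9771 and WT_9772 alone the median was -0.39, with 7 of 9 members lower. Without the satellite-rich pair the median was -0.94, with 7 of 9 members lower.

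Of the MHC class I and peptide loading list, 10 of 16 members were lower and 6 higher (median -0.57). H2-K1, a classical class I heavy chain, had 387, 865 and 514 CPM in Tie2Cre against 1817, 1235, 526 and 590 CPM in WT, and its fitted change turned positive against the last pair of WT libraries alone. Calr, the chaperone calreticulin of the peptide loading complex, had 34.0, 64.7 and 35.02 CPM against 150, 147, 50.1 and 64.0 CPM (log2 change -1.21 ± 0.45). The interferon lists stayed closer to the centre: 19 of 28 interferon-gamma response genes and 15 of 24 type I response genes were lower, with medians of -0.24 and -0.15. The medians of these 3 lists were above 0 against WT_9771 and WT_9772 alone, at 0.11 for class I and peptide loading, 0.070 for the interferon-gamma response and 0.22 for the type I interferon response. Without the satellite-rich pair, the same medians were -0.48, -0.23 and -0.18. Cxcl10, a chemokine that draws T cells, had 43.5, 71.9 and 84.0 CPM against 125, 233, 107 and 73.3 CPM, and Gbp4, an interferon-inducible GTPase, had 46.9, 100.2 and 90.4 CPM against 122, 179, 153 and 105 CPM.

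No endothelial marker passed the test. Of 20 endothelial markers 14 were higher and 6 lower in Tie2Cre, with a median of 0.18, and the summed level was 4334 to 8322 CPM in Tie2Cre and 3008 to 6635 CPM in WT. The defining markers of the labelled cell type were thus present in all 7 libraries. Against WT_9748 and WT_9749 alone 11 of 20 were higher with a median of 0.02, where the median of all genes was 0.39. Against WT_9771 and WT_9772 alone 16 of 20 were higher with a median of 0.44, where that of all genes was 0.11. Pecam1, the sorting antigen, had 714, 1377 and 879 CPM in Tie2Cre against 1151, 1078, 435 and 1207 CPM in WT, and the log2 change was 0.03 with a 95% interval of -0.68 to 0.75. Cdh5, the adherens junction protein VE-cadherin, had a change of -0.18 (-0.88 to 0.51), and Kdr, the main VEGF receptor, of -0.20 (-1.07 to 0.67). Tek, whose promoter drives the Cre, stood at 47.2, 101 and 65.9 CPM against 81.6, 54.4, 11.5 and 57.4 CPM, with a change of 0.47 (-0.49 to 1.42). The sign of Pecam1, Cdh5, Kdr and Tek each turned under at least 1 other setting.

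The largest change of the list was that of Plvap, which forms the diaphragms of fenestrae and caveolae. It had 461, 1125 and 521 CPM in Tie2Cre against 197, 126, 124 and 655 CPM in WT. The 3 WT libraries other than WT_9772 were all below the Tie2Cre range (log2 change 1.35 ± 0.52, 95% interval 0.29 to 2.41, edgeR adjusted p = 0.664). Among endothelial transcription factors 16 of 20 were higher, with a median of 0.36. Over 20 settings 11 to 18 members of that list were higher, with medians from 0.22 to 0.65. Sox18, a factor of vascular development, had 85.0, 96.3 and 68.1 CPM against 36.4, 58.0, 22.2 and 62.8 CPM, and Fli1, an ETS factor, had 165, 180 and 125 CPM against 125, 104, 36.1 and 113 CPM. Both had no overlap between groups, by a narrow margin in the case of Fli1 (2.86% of all genes were higher without overlap).

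**Figure D3:**
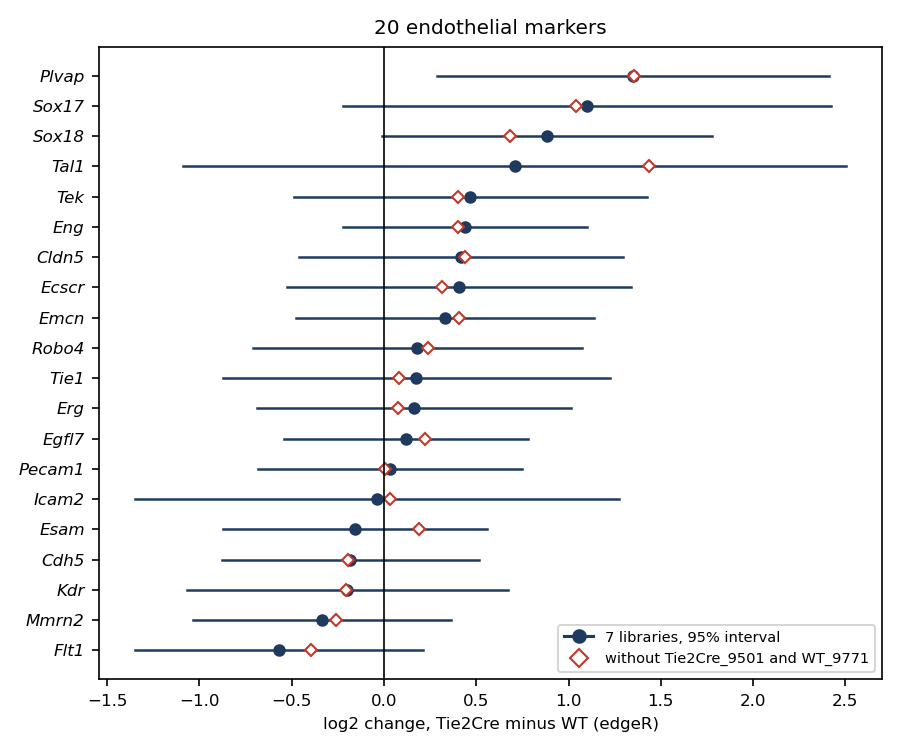
Log2 change of the 20 endothelial markers between Tie2Cre and WT in the edgeR fit, with 95% intervals (blue points and lines), and the same without Tie2Cre_9501 and WT_9771 (red diamonds). The interval of Plvap alone lies above 0, and Pecam1 is centred at 0.03.

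Tip cell genes, which mark the leading cells of vessel sprouts, lay on the lower side. In Tie2Cre 18 of 19 were lower (49.1% of all genes were), with a median of -0.43. At an unadjusted edgeR p under 0.05 there were 4 (2.88% of all genes were lower at that level). Without the satellite-rich pair 15 were lower and 4 higher with the same median, and the median lay between -0.9996 (without Tie2Cre_9504) and -0.15 (against WT_9771 and WT_9772 alone) over 20 settings. Dll4, the Notch ligand of tip cells, had 71.4, 92.6 and 86.9 CPM in Tie2Cre against 247, 230, 53.3 and 133 CPM in WT (log2 change -0.99 ± 0.41). All WT libraries but the satellite-rich one were above the Tie2Cre range. Plaur, the urokinase receptor, had 24.9, 39.5 and 34.4 CPM against 50.7, 107, 30.4 and 68.5 CPM, and Pgf, a ligand of VEGF receptor 1, had 0.378, 12.6 and 10.7 CPM against 32.3, 15.9, 9.85 and 29.0 CPM. Adm, the vasodilator adrenomedullin, was low in both groups, at 0 to 2.19 CPM in Tie2Cre and 0.828 to 9.85 CPM in WT.

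Of the VEGF ligands and receptors 6 of 8 were lower (median -0.59, and -0.57 with the member at the count limit left out). Vegfc, the ligand for lymphatic growth, had 0, 2.19 and 0.630 CPM in Tie2Cre against 11.3, 4.04, 8.21 and 15.9 CPM in WT, with no overlap (log2 change -3.26 ± 1.09, edgeR adjusted p = 0.619). Flt1, the decoy-like VEGF receptor 1, had 136, 477 and 301 CPM against 617, 561, 241 and 389 CPM. In the angiopoietin and Tie list 4 of 6 were higher (median 0.14). Tie1, the orphan partner of Tek, and Angpt2, the ligand released by activated endothelium, had changes of 0.17 and -0.23 whose sign depended on the libraries used. Notch genes were lower in 12 of 16 cases, with a median of -0.49. Neither direction held against the satellite-rich WT_9771 and WT_9772 alone. There 4 of 8 VEGF ligands and receptors (median 0.14) and 8 of 16 Notch genes (median 0.045) were lower. Without the satellite-rich pair, 6 of 8 VEGF ligands and receptors (median -0.63) and 11 of 16 Notch genes (median -0.41) were lower.

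The lists of capillary and venous endothelium had medians above 0, while 50.8% of all genes had a change above 0. The arterial list had 5 genes higher and 6 lower, with a median of -0.90 that ran from -1.08 to 0.59 over 20 settings. In the capillary and fatty acid uptake list 9 of 13 were higher, with a median of 0.30, and Fabp4 was the 1 member without overlap. Of all genes, 2.86% were higher and 1.34% lower without overlap. Cd36, a fatty acid transporter, had 275, 374 and 194 CPM in Tie2Cre against 110, 206, 65.7 and 220 CPM in WT (log2 change 0.90 ± 0.47). In the venous list 5 of 8 were higher, with a median of 0.66. Il6st, the gp130 receptor subunit shared by the IL-6 family, had 492, 654 and 610 CPM against 386, 389, 242 and 444 CPM, with no overlap (0.68 ± 0.35, edgeR adjusted p = 0.743). Lrg1, a secreted modifier of TGF-beta signalling, had 133, 338 and 373 CPM against 102, 150, 85.3 and 290 CPM. The venous list also held a gene of the opposite sign: Vcam1, an adhesion receptor for leukocytes, had 52.1, 43.0 and 8.56 CPM against 101, 55.6, 75.5 and 57.2 CPM, with no overlap.

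Osmr, the oncostatin M receptor that pairs with Il6st, had 169, 76.1 and 76.7 CPM in Tie2Cre and 35.1, 42.7, 17.2 and 68.3 CPM in WT (log2 change 1.38 ± 0.48, edgeR adjusted p = 0.663). The change was 0.68 without the satellite-rich pair, one of which held the highest and the other the lowest value. Over the gp130 list as a whole 6 of 11 were higher with a median of 0.14, and the median was below 0 without that pair. Smad1, a signal transducer of BMP receptors, had 90.7, 55.5 and 100.1 CPM against 35.9, 31.6, 33.6 and 63.2 CPM, and TGF-beta and BMP genes divided evenly, 12 higher and 12 lower, but had 18 of 24 higher against WT_9771 and WT_9772 alone.

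Matrix genes lay on both sides. Basement membrane genes were lower in 13 of 16 cases (median -0.42) and integrins in 13 of 15 (median -0.45). The basement membrane list turned against WT_9771 and WT_9772 alone, with 5 of 16 lower and a median of 0.22, and the integrins there had 8 of 15 lower and a median of -0.021. Without the satellite-rich pair, 12 of 16 basement membrane genes (median -0.48) and 13 of 15 integrins (median -0.31) were lower. Fn1, the fibronectin of vascular matrix, had 82.0, 312 and 193 CPM in Tie2Cre against 714, 522, 226 and 375 CPM in WT (log2 change -1.23 ± 0.50). Fibulins had the opposite sign. Fbln2 stood at 546, 630 and 317 CPM against 263, 320, 136 and 256 CPM (1.03 ± 0.40), and Fbln5, which assembles elastic fibres, at 156, 109 and 76.5 CPM against 14.4, 28.9, 59.9 and 85.6 CPM (1.27 ± 0.49). Timp3, a matrix-bound inhibitor of metalloproteases, had 114, 299 and 197 CPM against 296, 465, 313 and 378 CPM. Of the coagulation genes, Plat (tissue plasminogen activator) was lower without overlap, at 8.31, 44.6 and 24.6 CPM against 61.3, 52.3, 57.4 and 62.1 CPM. Tfpi (tissue factor pathway inhibitor) was higher without overlap, at 29.9, 18.2 and 26.5 CPM against 13.6, 14.7, 12.3 and 7.38 CPM. Of all genes, 2.86% were higher and 1.34% lower without overlap. Tnfrsf1b, a TNF receptor, had 53.3, 71.3 and 27.3 CPM against 172, 129, 34.5 and 139 CPM (log2 change -1.23 ± 0.46).

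Markers of mural cells and fibroblasts varied from gene to gene and library to library. Of 139 Tie2Cre counts of Pdgfrb, the PDGF receptor of pericytes, 127 came from Tie2Cre_9501, and the 4 WT libraries held 1 count. Dcn, the fibroblast proteoglycan decorin, had 50 counts in Tie2Cre, of which 49 were in Tie2Cre_9501, and 1 in WT. The summed fibroblast level was 89.9 CPM in Tie2Cre_9501 and 28.9 and 34.4 CPM in the other Tie2Cre libraries, against 0.850 to 47.6 CPM in WT. The summed mural level was 93.0, 54.8 and 83.3 CPM in Tie2Cre and 61.4, 75.6, 42.7 and 32.4 CPM in WT. Tagln, an actin-binding protein of smooth muscle, was higher without overlap, at 26.8, 15.7 and 35.3 CPM against 0, 14.7, 0.821 and 0.189 CPM. Rgs5, a pericyte regulator of G protein signalling, had 0.756, 16.6 and 19.5 CPM against 1.16, 6.16, 4.10 and 2.46 CPM. Abcc9, a subunit of vascular potassium channels, had 4.53, 14.1 and 9.95 CPM against 40.9, 39.7, 12.3 and 28.4 CPM. The medians of the mural and fibroblast lists were 0.25 and 0.62 with all libraries and 2.44 and 2.27 without the satellite-rich pair. The fibroblast median was -0.42 against WT_9771 and WT_9772 alone, 6.32 against WT_9748 and WT_9749 alone and -0.52 without Tie2Cre_9501. In that list 4 of 11 tested members held 3 counts or fewer in a group. The mural median ran from -0.63 to 2.57 over 20 settings. The part of mural cells and fibroblasts in the Mmp2, Fbln2 and Fbln5 values was not tested.

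Ribosomal protein genes shared 1 sign: all 35 cytosolic ribosomal protein genes had a fitted change above 0, with a median of 0.62. The sign held for all 35 under each scaling and test used. Leaving out Tie2Cre_9504 lowered the count to 29 of 35 and the median to 0.17. For CD8KO against WT the median of this list was 0.81, and for Tie2Cre against CD8KO it was -0.19. Rplp0, a protein of the ribosomal stalk, had 187, 184 and 314 CPM in Tie2Cre against 94.0, 152, 126 and 190.5 CPM in WT. No member had groups without overlap, and the library sums ran from 2016 to 3973 CPM in Tie2Cre and from 1099.5 to 2831 CPM in WT. Nuclear genes of oxidative phosphorylation were higher in 15 of 21 cases, with a median of 0.45. The median was 0.14 without the satellite-rich pair, and without Tie2Cre_9504 it was -0.083 with 9 of 21 higher. Targets of p53 were lower in 11 of 17 cases with a median of -0.16, and in 6 of 17 with a median of 0.091 against WT_9771 and WT_9772 alone. Without the satellite-rich pair, 10 of 17 were lower with a median of -0.17. Cell cycle genes were lower in 16 of 26 cases (median -0.30), but higher in 16 of 26 without the satellite-rich pair (median 0.35).

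**Figure D4:**
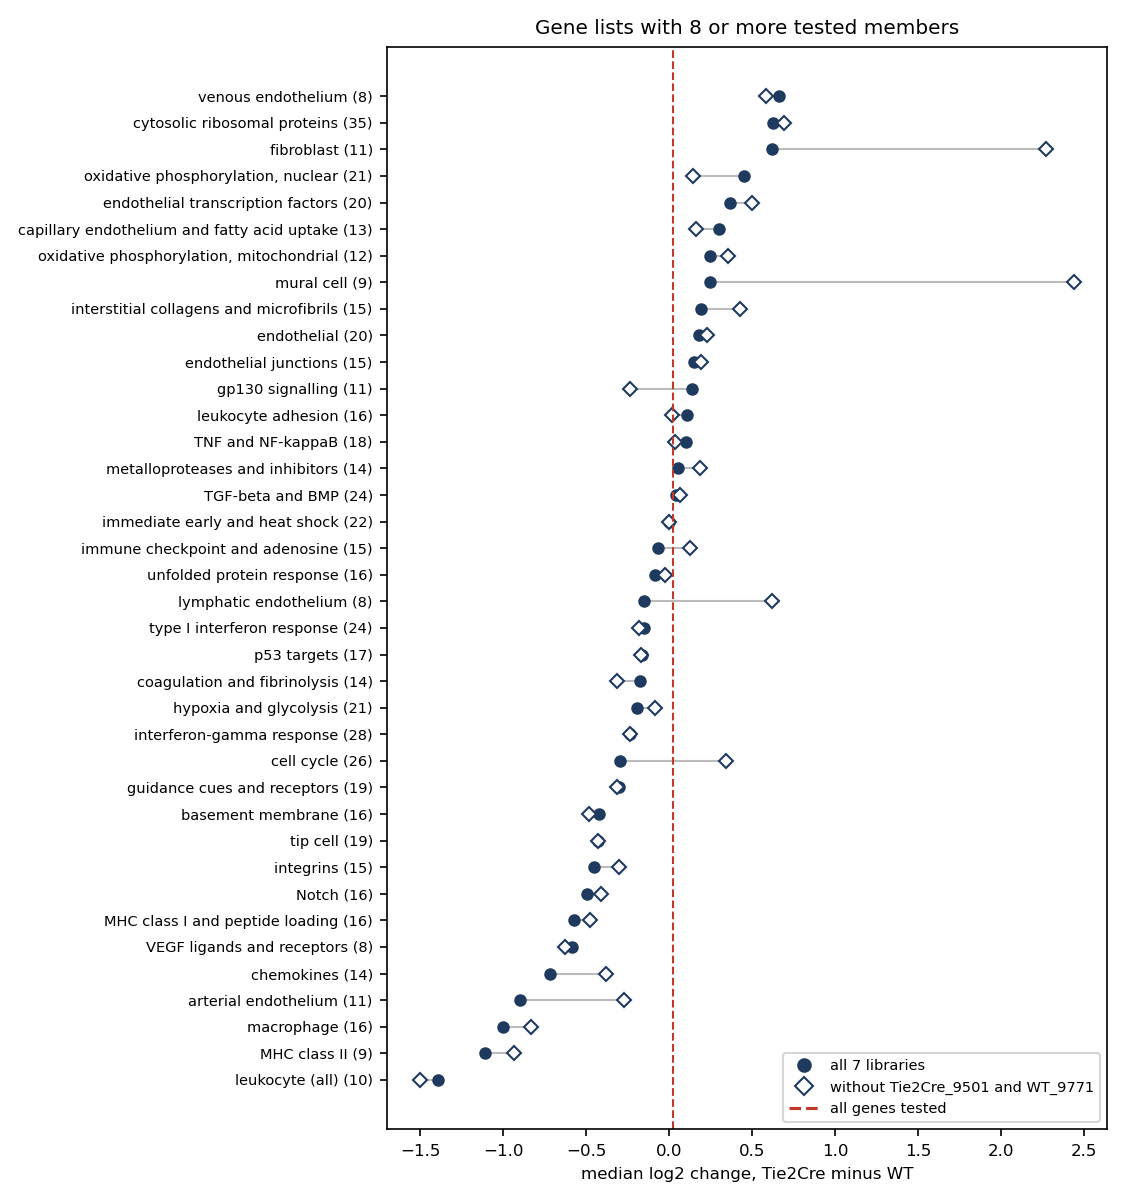
Median log2 change between Tie2Cre and WT for each gene list with at least 8 tested members (number of members in brackets), with all 7 libraries (filled circles) and without Tie2Cre_9501 and WT_9771 (open diamonds); the dashed line is the median of all genes, 0.02. Leukocyte, MHC class II and macrophage lists lie lowest under both, and the mural, fibroblast and lymphatic endothelium lists move most between them.

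CD8KO, the third CD4-competent background, carries 97xx numbers like WT. Between Tie2Cre and CD8KO, edgeR called 0 of 14875 genes (0%), with 1439 (9.67%) at an unadjusted p under 0.05, and DESeq2 called 33 of 13225 (0.25%). Against WT, CD8KO also gave 0 calls in edgeR, with 1568 genes (10.5%) at an unadjusted p under 0.05. Since the comparisons with WT share the WT libraries, their values are only set side by side. Tested directly, the difference between the Tie2Cre and CD8KO effects is the Tie2Cre against CD8KO comparison. The MHC class II list had a median of -1.16 for CD8KO against WT and -0.08 for Tie2Cre against CD8KO. For endothelial transcription factors these medians were 0.46 and -0.11. For pan-leukocyte markers they were -0.64 and -0.77, and for tip cell genes 0.22 and -0.77.

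For Trp53inp2 and Dpp8 the WT libraries stood apart from every other library of the study. Trp53inp2 was at 14.7 to 33.6 CPM in the 13 libraries of the 4 backgrounds other than Tie2Cre and WT, all above the highest WT value. Its log2 change was 2.94 for CD8KO against WT and -0.17 ± 0.59 for Tie2Cre against CD8KO. Dpp8 likewise lay above all WT libraries in all 13, at 9.72 to 24.2 CPM. Cd74 and Plvap differed among the other backgrounds. Cd74 had 240, 171 and 132 CPM in CD8KO (log2 change -2.19 for CD8KO against WT, 0.21 for Tie2Cre against CD8KO). Plvap was at 1033, 653 and 774 CPM in CD8KO, with a change of 1.57 against WT. Of the 13 other libraries, 5 were below all WT values for Cd74 and 8 above all WT values for Plvap.

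For Dnm3 and Sult1a1 the Tie2Cre libraries were the ones apart, above every WT library and all 13 other libraries. Slc10a3 and Cndp2 were higher in all 13 other libraries than in any Tie2Cre library, but WT overlapped Tie2Cre. The lowest WT value was 6.13 CPM for Slc10a3 and 3.28 CPM for Cndp2, and the highest Tie2Cre values were 7.68 and 7.56 CPM. Ttc17 had 31.0, 17.6 and 28.4 CPM in CD8KO, within the WT range, and 10 of the 13 other libraries were above all Tie2Cre values. Its change against CD8KO was -2.65 ± 0.69 (edgeR adjusted p = 0.511). Fabp4 and Fbln2 took opposite places in the pair of backgrounds that share the driver and the 95xx numbers. In Tie2Cre_H2Abf, Fabp4 was at 48.3, 13.7, 28.8 and 24.2 CPM and Fbln2 at 67.5, 52.7, 91.3 and 103 CPM, below every Tie2Cre library and, for Fbln2, below every WT library. With the floxed H2-Ab1 itself they made up the 3 genes of 14875 (0.0202%) that edgeR called between these backgrounds. The log2 change of Tie2Cre_H2Abf against Tie2Cre was -2.72 for Fabp4 (edgeR adjusted p = 0.0401) and -2.66 for Fbln2 (0.0067), while against WT it was -1.01 and -1.63.

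**Figure D5:**
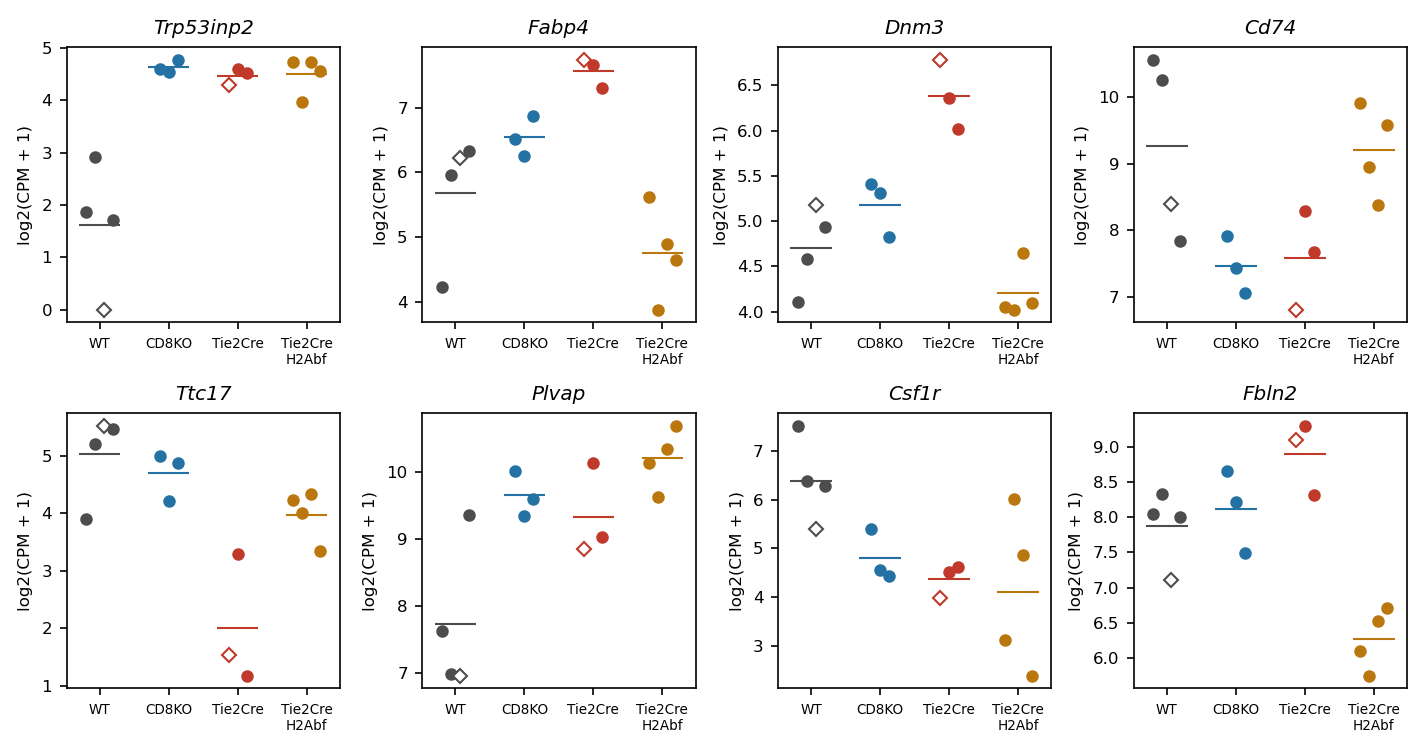
Levels of 8 genes as log2(CPM + 1) in every library of WT (n = 4), CD8KO (n = 3), Tie2Cre (n = 3) and Tie2Cre_H2Abf (n = 4), with the group mean as a line and open diamonds for the satellite-rich libraries Tie2Cre_9501 and WT_9771. WT stands apart for Trp53inp2 and Tie2Cre for Dnm3, and for Ttc17 Tie2Cre lies below WT and CD8KO. The means of Tie2Cre and Tie2Cre_H2Abf lie on opposite sides of the WT mean for Fabp4 and Fbln2.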

How the data were processed

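Per the file headers, the authors deposited for each library the expected count, the TPM and the effective length of 46983 gene IDs. An expected count is an estimate made by RSEM and carries no normalization, per the file headers. The deposited TPM values, scaled by the authors for length and depth, were not tested. The deposited effective length of each gene served in an alternative only. The submitters' processing notes name bcl2fastq 2.17, STAR, RSEM 1.2.28 and DESeq2, with GRCm38 as the build; the versions of STAR and DESeq2 and the annotation are not given in the sources used here. Per the labels, cDNA was amplified by MATQ and Nextera XT libraries were made from it. These keep no strand, so overlapping antisense genes cannot be separated. RSEM divides reads among near-identical genes, so single ribosomal protein and H2 genes are uncertain.

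Expected counts, 4.45% of them not whole (tolerance 0.005), were rounded. Tests used the quasi-likelihood method of edgeR 4.0.16 (R 4.3.3; robust, TMM factors, filterByExpr), fitted on all 20 libraries and 6 backgrounds, with Benjamini-Hochberg adjustment over 14875 genes and a threshold of 0.05. The common biological coefficient of variation was 0.995. Standard errors come from the F statistic. CPM values use TMM-scaled library sizes and are not per length. Alternatives were DESeq2 1.42.0, limma-voom (limma 3.58.1) with sample weights, and other factors, filters, controls and libraries. Scripts were tested on simulated data. Pairs of the 7 libraries gave a chi-square over its degrees of freedom of 36.6 to 461, and no library was taken as a duplicate.

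The comparison, the 50 lists (665 genes) and all tests were chosen with earlier results of these data known. Genes were named by rule. In each direction these were up to 12 genes by smallest p whose mean reached 10 CPM. In each list these were the 4 members of smallest p whose mean reached 1 CPM, of which a part is printed. Tek, Pecam1, Cdh5, Kdr, Cd4, Cd8a, H2-Ab1, Ptprc, Csf1r and Xist were always included. A group total of 3 counts or fewer precluded a fitted fold.

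One gene of the ribosomal protein list is not reported here by name.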

Additional observations from a re-analysis of the deposited data

Results flagged for a closer look

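Among 79 genes checked, the highest or lowest of the 4 WT libraries stood far from the other 3 in 9 cases. For independent groups of normally distributed values, chance gives this in about 1 of 20. The genes checked were largely chosen by small p in this comparison and share the same 4 WT libraries. That rate is therefore no measure for the 9 cases. WT_9748 was low for Slc10a3 (6.13 CPM, the others 40.2 to 42.6 CPM). WT_9771, the satellite-rich library, was low for Pecam1 (435 CPM, the others 1078 to 1207 CPM). It was also the only WT library with any count of Cd8a (2.46 CPM), H2-Ob (26.3 CPM), Pdgfrb (0.821 CPM) and Dcn (0.821 CPM). They rest on 3, 32, 1 and 1 counts. The chance rate applies to them even less, since the other 3 WT libraries were at 0. WT_9772 was high for Plvap (655 CPM, the others 124 to 197 CPM) and Smad1 (63.2 CPM, the others 31.6 to 35.9 CPM). WT_9749 was high for Tagln (14.7 CPM, the others 0 to 0.821 CPM). No cause of these values was tested.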

How the results depend on the processing

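The count of genes called between Tie2Cre and WT was 0 under all settings but DESeq2 (80) and leaving out libraries in turn, which gave 0 to 1. The 1 gene, without Tie2Cre_9502, was Tmem104 (log2 change -5.22, against -1.99 with all 7 libraries), named after its values were seen. Against CD8KO the count was 0 but for DESeq2 (33) and no filter (18). DESeq2 called 21 of the 24 named genes; no other setting called any. Of 1499 alternative values for 75 genes, 21 had the other sign. No gene had an edgeR call with all 7 libraries, so no reversal could fall on a called gene. The genes were largely chosen by small p in this comparison, so the low number of reversals follows in part from the choice. Tek turned with effective-length offsets (-0.15). Pecam1 turned with limma-voom (-0.020), against WT and CD8KO together (-0.068) and against WT_9748 and WT_9749 (-0.20), and ran from -0.29 to 0.24 when libraries were left out in turn. Tie1 turned against WT_9748 and WT_9749 (-0.28) and ran from -0.40 to 0.41. Against WT_9771 and WT_9772 alone the sign turned for Cdh5 (0.18), Kdr (0.30), Ptprc (0.33), Vav1 (1.71), H2-K1 (0.11) and Angpt2 (0.44). Ptprc also turned against WT and CD8KO together (0.11) and Angpt2 without the satellite-rich pair (0.15). With libraries left out in turn Kdr ran from -0.45 to 0.045 and Angpt2 from -1.46 to 0.30. The cause was not tested. The median of all genes moved to 0.39 against WT_9748 and WT_9749 alone, to 0.20 without WT_9771 and to -0.15 without Tie2Cre_9501, and list medians under those settings should be read against it. No paired analysis was possible because each library number is used once. Depth and spread limit the comparison to large differences, above all for genes under 10 CPM.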

Other observations

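Genes at an unadjusted p under 0.05 were spread over the chromosomes, from 5.70% of the tested genes of chromosome 5 to 8.78% of those of chromosome 16. The summed level of olfactory and vomeronasal receptor genes was 1707 CPM in Tie2Cre_9501 and 2341 CPM in WT_9771, and 15.4 to 275 CPM in the other 5 libraries.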
